A study of Drosophila melanogaster with 12 samples.

Results

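Cholinergic neurons lacking parkin were compared with cholinergic neurons of control flies across the genes of the Drosophila melanogaster genome. The comparison rests on 6 of the 12 arrays of the study, namely the 3 titled as cholinergic mutant and the 3 titled as cholinergic control, taken by title alone. The other 6 arrays hold dopaminergic neurons, also titled as mutant or control, and serve here only to compare levels and effects. Each array measured 1 pool of 115 neurons sorted by green fluorescence from at least 15 adult brains. The mutants were parkin null, and neither the allele, the genotype of the controls, the driver of the fluorescent protein, the sex nor the exact age of the flies is given in the sources used here. All flies were kept at 25 °C with 12 hours of light. Brains of both groups were incubated with trypsin at 37 °C for 45 minutes, after which the cDNA of the sorted cells was amplified and measured on Affymetrix Drosophila 2.0 arrays. Because pools held a fixed number of sorted cells, fewer cells of a type and less RNA per cell cannot be told apart in them. All values are log2 intensities per probe set (the group of probes that reports 1 transcript) as deposited, so a difference of 1 stands for a change of intensity by a factor of 2.

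Parkin is a ubiquitin ligase that acts with the kinase Pink1 on the surface of damaged mitochondria, where it tags proteins and marks the organelle for removal by autophagy. Loss of parkin in flies damages flight muscle, the male germ line and a subset of dopaminergic neurons, and mutations of the human gene underlie early-onset familial Parkinson's disease. Cholinergic neurons make acetylcholine, the main excitatory transmitter of the fly brain. The title of the study sets neurons that are sensitive to the mutation against neurons that are not. The cholinergic comparison asks which genes differ with the mutation in cholinergic neurons taken on their own.

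The pools carried neuronal and cholinergic transcripts on every array. The pan-neuronal vesicle gene nSyb measured 11, 10.91 and 10.83 in the controls and 11.40, 11.23 and 10.70 in the mutants. ChAT, which makes acetylcholine, measured 11.21, 10.32 and 9.72 in the controls and 11.55, 10.50 and 10.53 in the mutants. The ranges of both genes overlapped between the groups. Neither group could be told from the dopaminergic pools by ChAT, whose mean there was 10.66 in controls and 9.56 in mutants. The tyrosine hydroxylase gene ple, which makes the precursor of dopamine, was dim on all 6 cholinergic arrays (3.61 to 4.18) against a mean of 10.50 in dopaminergic controls. Not all dopamine genes were dim. On the 6 cholinergic arrays Ddc measured 8.65 to 11.24 and Vmat 4.85 to 10.06, against means of 11.48 and 12.76 in dopaminergic controls. Fer2 measured 5.05 to 6.72 against a mean of 10.24. Markers of other transmitters were present, with the GABA synthesis gene Gad1 between 7.88 and 10.81 and the vesicular glutamate transporter VGlut between 5.07 and 11.65. The glial factor repo lay between 2.74 and 3.09 on 5 arrays and measured 5.73 in mutant replicate 2. The targeted gene was not analysed here, since the annotation names no probe set for parkin.

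Replicates were no more alike than arrays of different genotype. Across the 9748 probe sets tested, the correlation ran from 0.414 to 0.560 within a group and from 0.405 to 0.570 between mutant and control arrays. Between 4.33% and 7.06% of probe sets lay at least 4 log2 units apart on 2 arrays of the same group, and between 4.30% and 7.62% on a mutant and a control array. Control replicate 2 stood apart, with correlations of 0.405 to 0.438 to the other 5 arrays and 2380 probe sets with a log2 value of at least 8, where the others had 2896 to 3307. The spread depended on the level. The median SD between arrays of a group was 0.435 for probe sets with a mean under 6, reached 1.51 for means between 8 and 9, and was 0.255 for means of 12 and over.

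**Figure D1:**
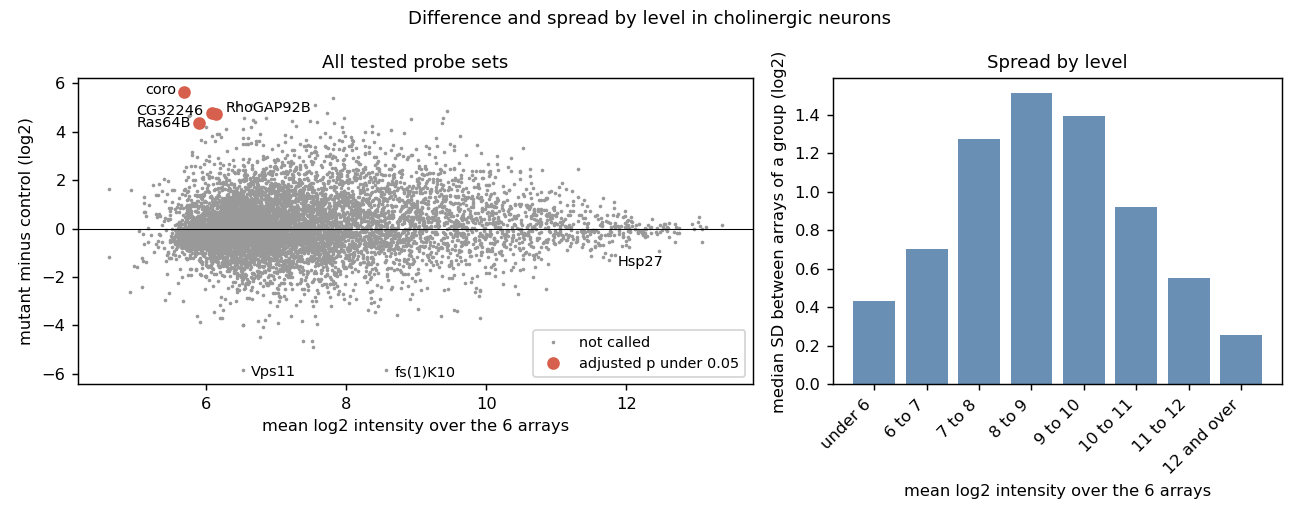
Left, the mutant minus control difference (log2) of each of the 9748 tested probe sets against its mean log2 intensity over the 6 cholinergic arrays, with the 4 probe sets at an adjusted p under 0.05 in red. Right, the median SD between arrays of a group (log2) for probe sets grouped by mean log2 intensity. The 4 red points lie at means near 6, where the median SD is below 0.71. Those means average controls of 2.69 to 3.92 and mutants of 7.58 to 9.28, so no array of these genes lies near 6. The median SD is 1.28 for means between 7 and 8 and peaks at 1.51 for means between 8 and 9.

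Past the threshold, and only with a filter on low values, 4 genes were higher in parkin mutants. They encode a small GTPase (Ras64B), a regulator of small GTPases (RhoGAP92B), an actin-binding protein (coro) and a protein of no role stated here (CG32246). These were 4 of 9748 probe sets (0.041%) at an adjusted p under 0.05 with limma, and all 4 carry a single gene symbol. No probe set was lower at that threshold (0 of 9748; 147, or 1.51%, were lower and 294, or 3.02%, higher at an unadjusted p under 0.05). Each of the 4 passed the filter on low values through the 3 mutant arrays alone, as did 94 probe sets in all, so a difference between the groups was built into their selection, and their p-values are not independent of it. No probe set was called without the filter (smallest adjusted p = 0.110), with eBayes without a trend (0.0924) or with the title letter as a fixed block (0.573). A filter on the mean over the 6 arrays, chosen after seeing the data, kept 3 of them as calls and did not retain coro.

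Ras64B encodes a small GTPase of the Ras family. It measured 3.48, 3.84 and 3.86 in the controls and 8.26, 8.08 and 7.89 in the mutants. All 3 mutant arrays lay more than 4 log2 units above all 3 control arrays. The difference for Ras64B was 4.35 ± 0.29 (SE, n = 3 per group, limma adjusted p = 0.0175 after the filter). RhoGAP92B encodes a protein that speeds GTP hydrolysis by small GTPases. Its levels were 3.89, 3.80 and 3.62 in the controls and 8.74, 8.06 and 8.69 in the mutants, again without overlap. The difference was 4.72 ± 0.33 (limma adjusted p = 0.0175 after the filter).

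The gene coro encodes coronin, which binds actin filaments. It measured 3.10, 2.84 and 2.69 in the controls and 9.28, 7.58 and 8.65 in the mutants, without overlap. Its difference of 5.62 ± 0.47 was the largest of the 4 (limma adjusted p = 0.0253 after the filter). CG32246 measured 3.49, 3.70 and 3.92 in the controls and 7.98, 8.41 and 8.98 in the mutants. Every mutant array was above every control array, with a difference of 4.75 ± 0.37 (limma adjusted p = 0.0212 after the filter). The calls did not hold without single arrays, although the differences stayed at 4.23 to 4.44 for Ras64B, 4.6 to 4.94 for RhoGAP92B, 4.49 to 4.99 for CG32246 and 5.23 to 6.08 for coro. None of the 4 was called without mutant replicate 1 or without control replicate 1, 2 or 3, whereas RhoGAP92B and coro were called without mutant replicate 2, and CG5823, named here after its values were seen, was the only call without mutant replicate 3. Within the 3 arrays whose title codes begin with E, 2 mutants and 1 control, the differences of the 4 genes were 4.12 for Ras64B, 4.75 for RhoGAP92B, 4.78 for CG32246 and 5.42 for coro.

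The other genes with the smallest p on the higher side did not pass the threshold. The probe sets given for cert, EMC1, lncRNA:CR33942, mod(mdg4), CG8202, Klp98A, Fbl6 and CG7058 passed the filter through the 3 mutant arrays alone. As for the 4 called genes, a difference was thus built into their selection, and their separate groups are no further support. The gene cert, whose product carries ceramide from the endoplasmic reticulum to the Golgi, came closest. It measured 2.99, 3.30 and 3.98 in the controls and 8.11, 8.85 and 7.26 in the mutants. This difference of 4.65 ± 0.49 did not pass (limma adjusted p = 0.0905). EMC1, a subunit of a complex that inserts proteins into the membrane of the endoplasmic reticulum, measured 3.99, 4.41 and 4.24 in the controls and 8.08, 6.96 and 7.13 in the mutants. The groups did not overlap, and the difference was 3.18 ± 0.38 (limma adjusted p = 0.124). The long noncoding RNA lncRNA:CR33942 measured 5.09, 4.66 and 4.82 in the controls and 8.08, 7.79 and 9.11 in the mutants, with a difference of 3.47 ± 0.47 (limma adjusted p = 0.165).

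Some of these genes are read by several probe sets, and those did not all behave alike. A probe set of mod(mdg4), a chromatin and insulator gene with many spliced forms, measured 4.79, 5.27 and 4.93 in the controls and 10.31, 8.70 and 9.35 in the mutants, a difference of 4.46 ± 0.61 (limma adjusted p = 0.165). The gene's 21 other probe sets differed by −0.48 to 3.44. A probe set of CG8202 measured 4.51, 4.25 and 4.71 in the controls and 8.21, 8.81 and 9.67 in the mutants (difference 4.41 ± 0.50), while its 2 other probe sets differed by −0.21 and −0.35. The difference was 3.60 ± 0.53 for the kinesin Klp98A, 3.77 ± 0.57 for the F-box gene Fbl6 and 5.09 ± 0.81 for CG7058, with limma adjusted p-values of 0.224, 0.232 and 0.291. Sps2, which makes the selenium donor for selenoproteins, had a higher mean by 3.16 ± 0.66 (5.54, 6.63 and 5.79 against 9.39, 8.50 and 9.55) and an adjusted p of 0.481.

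On the lower side no gene passed, and wda, Vps11, t-Grip84, Nap1 and E(spl)m5-HLH had the smallest p in that order. Of these, all but Nap1 passed the filter through the 3 control arrays alone, as did 76 probe sets in all. The same held for CG44008, mRpL20 and CG9297 below, so a difference was built into their selection. The gene wda, a subunit of the histone acetylation complex SAGA, measured 9.53, 8.25 and 9.26 in the controls and 4.82, 4.72 and 4.05 in the mutants. The groups did not overlap, with a difference of −4.48 ± 0.52 (limma adjusted p = 0.111). Vps11, a core subunit of the HOPS and CORVET complexes that tether endosomes and lysosomes before fusion, measured 10.14, 10.53 and 7.67 in the controls and 3.15, 3.64 and 4.02 in the mutants. Its difference of −5.84 ± 0.80 (limma adjusted p = 0.165) was among the 7 of at least 4 log2 units on the lower side (0.0718%), where the higher side had 33 (0.339%). E(spl)m5-HLH, a repressor switched on by Notch signalling, measured 9.82, 8.93 and 7.75 in the controls and 4.43, 4.32 and 5.59 in the mutants (difference −4.06 ± 0.68, limma adjusted p = 0.299).

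The maternal gene fs(1)K10, which acts in messenger RNA localisation in the oocyte, measured 11.99, 11.99 and 10.50 in the controls and 4.85, 4.70 and 7.37 in the mutants. Although this was the largest difference on the lower side (−5.86 ± 1.03), the spread among the mutants left it at a limma adjusted p of 0.336. The histone chaperone Nap1 measured 8.08, 7.88 and 8.18 in the controls and 4.92, 5.42 and 5.91 in the mutants, and t-Grip84, a testis form of a gamma-tubulin ring subunit, measured 6.61, 6.42 and 7.05 against 4.84, 4.94 and 4.55. Both had separate groups and did not pass (differences −2.63 ± 0.43 and −1.92 ± 0.30). The mitochondrial ribosomal gene mRpL20 differed by −3.97 ± 0.82, the inositol pyrophosphate kinase gene l(1)G0196 by −3.91 ± 0.86, and CG44008, CG9297 and CG6454 by −3.68 ± 0.71, −1.88 ± 0.40 and −2.83 ± 0.64. Of the 4 other probe sets of l(1)G0196, 3 differed by −0.81 to −0.45 and 1 by 0.79.

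**Figure D2:**
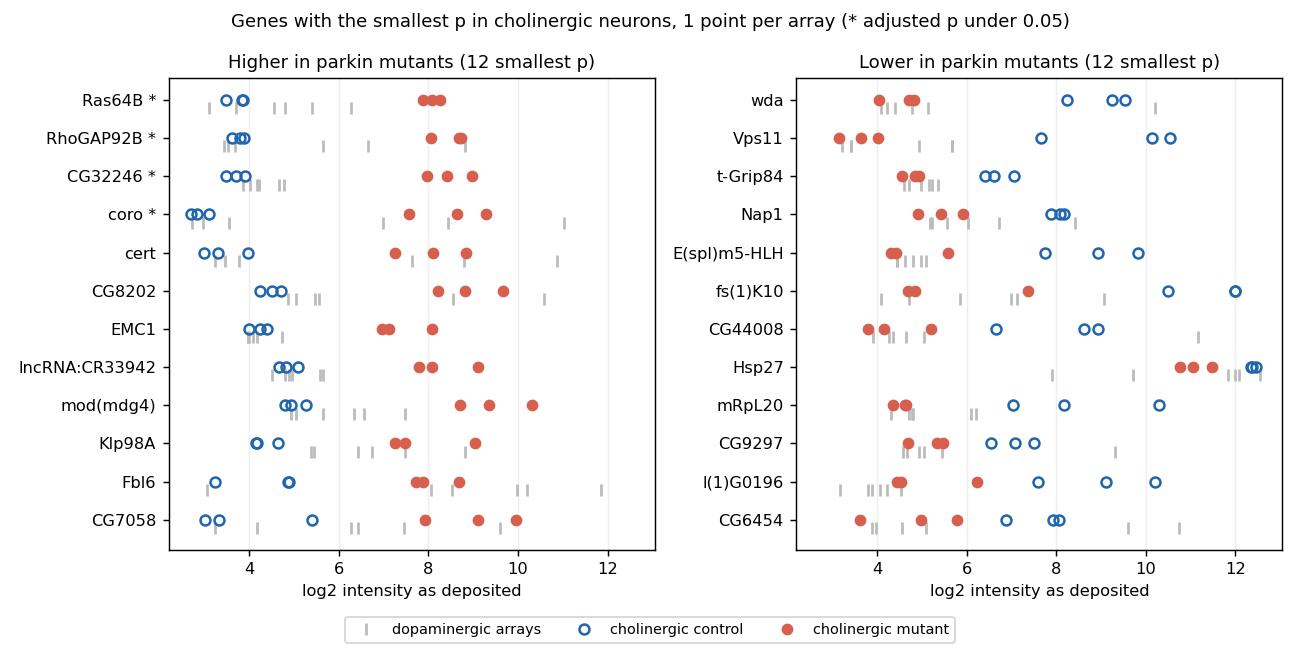
Log2 intensity as deposited for the 12 named genes with the smallest p in each direction, with 1 point per array. Open blue circles are cholinergic controls, filled red circles cholinergic mutants and grey ticks the 6 dopaminergic arrays; an asterisk marks an adjusted p under 0.05. The mutant and control circles do not overlap for any of the 24 genes. Since the genes were selected by p, this separation is no further support. The grey ticks of many genes reach across both groups.

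Counted over all probe sets, separate groups were common. The 3 mutants lay above the 3 controls for 385 probe sets (3.95%) and below them for 783 (8.03%). More probe sets were measured lower in the mutants (5639, 57.8%) than higher (4109, 42.2%), and the median difference was −0.16, which moved to −0.05 when each array was centred on its own median. Among the 5770 named genes that passed the filter, taken as 1 probe set per gene, 2669 were measured higher and 3101 lower, with a median of −0.09. Gene lists are described below beside these values, and no member of any list other than Ras64B passed the threshold. Each list holds genes chosen by role, and its median covers the members that passed the filter on low values. Members without a probe set of a single gene symbol are left out of all counts. The heat shock list thus counts 14 of 26 genes and the cytosolic ribosomal list 37 of 89.

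The transmitter genes of the sorted cells did not separate the genotypes. The 4 genes of acetylcholine synthesis and transport had a median difference of 0.54, with 3 measured higher and 1 lower, but −0.12 with 2 higher without control replicate 2 and −0.32 with the title letter as a fixed block. The vesicular transporter VAChT measured 9.79, 8.54 and 10.38 in the controls and 10.03, 9.71 and 10.88 in the mutants. ChT, which takes up choline, measured 11.14, 5.12 and 11.82 in the controls and 10.81, 11.18 and 11.34 in the mutants. Its positive difference (1.75 ± 1.73) rested on control replicate 2 and was −0.36 without that array. Ace, which breaks acetylcholine down, measured 10.60, 10.33 and 10.09 in the controls and 10.68, 5.96 and 9.49 in the mutants, so that 1 mutant array set its difference of −1.63 ± 1.27. The 8 nicotinic receptor subunits that passed, of 11 with a probe set, had a median of −0.18, against 0.10 over all 11. The subunit gene nAChRbeta1 measured 8.88, 10.69 and 10.73 in the controls and 10.87, 11.20 and 11.12 in the mutants, while nAChRalpha4 measured 10.90, 11.49 and 11.45 against 5.02, 11.24 and 7.37. Mutants lay above all controls for nAChRbeta1, and the groups overlapped for nAChRalpha4. For 1 other of the 8 subunits the mutants lay below all controls. All tested probe sets gave 3.95% wholly above and 8.03% wholly below.

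Most heat shock genes were measured lower in the mutants, and none passed the threshold. These chaperones, which refold damaged proteins, had a median difference of −0.52 over the 13 of 14 members that passed, with 10 measured lower and 3 higher. The mutants lay wholly below the controls for 5 of the 13 and wholly above them for none, where all tested probe sets gave 8.03% and 3.95%. The median stayed negative in the 14 other settings that change the fitted differences or the members (−0.77 to −0.21). The 14 members with a probe set averaged 9.39 to 10.20 on the control arrays and 9.0 to 9.7 on the mutant arrays. Brains of both groups had passed through the incubation at 37 °C before sorting.

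The small heat shock gene Hsp27 measured 12.38, 12.46 and 12.36 in the controls and 11.49, 10.76 and 11.05 in the mutants. The SD was 0.06 among the controls and 0.37 among the mutants, which lay below the controls on every array (difference −1.30 ± 0.27, limma adjusted p = 0.465). Hsp26, a second small heat shock gene, measured 12.97, 12.90 and 12.94 in the controls and 12.23, 12.34 and 11.47 in the mutants (−0.92 ± 0.25). The BAG-domain co-chaperone stv measured 12.58, 12.44 and 12.24 in the controls and 12.01, 11.19 and 11.75 in the mutants (−0.77 ± 0.27). All 3 had separate groups, and none passed. The Hsp40 co-chaperone mrj differed most, at 10.61, 9.52 and 9.35 in the controls and 4.23, 7.56 and 3.77 in the mutants (−4.64 ± 1.1, limma adjusted p = 0.594). Hsp68, a heat-inducible Hsp70 gene, had groups that overlapped, at 13.07, 12.97 and 12.88 against 12.97, 12.56 and 11.74. In the dopaminergic pools the mean of Hsp27 was 12.15 in controls and 9.87 in mutants. The 3 dopaminergic mutant arrays were far apart, at 11.99, 9.72 and 7.91. The lowest, replicate 3, had only 1627 probe sets with a log2 value of at least 8. Its median correlation to the cholinergic arrays was −0.02.

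**Figure D3:**
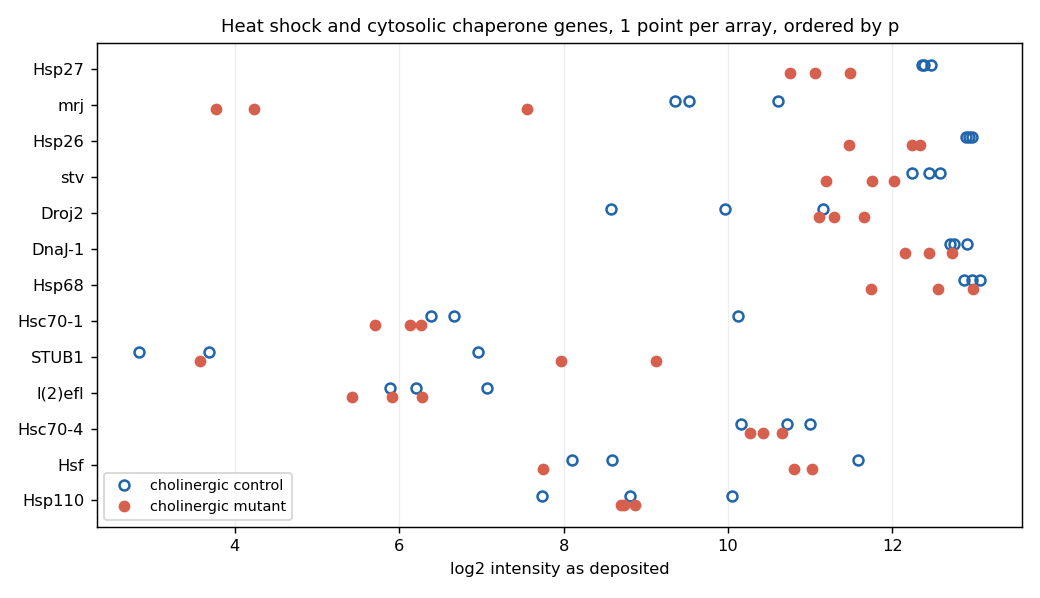
Log2 intensity as deposited of the 13 heat shock and cytosolic chaperone genes that passed the filter, ordered by p, with 1 point per array (open blue circles, cholinergic controls; filled red circles, cholinergic mutants). Hsp27, mrj, Hsp26, stv and Hsc70-1 have mutants wholly below the controls, and the control circles of Hsp27 and Hsp26 nearly coincide.

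Few of the probe sets with high levels differed. Of 238 probe sets with a mean of at least 11, 12 (5.04%) had an unadjusted p under 0.05, close to the 4.52% of all tested probe sets. Of the 12, 9 were lower and 3 higher in the mutants, and Hsp27, Hsp26 and stv were among the lower ones. The 2 named genes on the higher side, singled out after their values were seen, were nej and Pur-alpha. The histone acetyltransferase nej, the fly CBP, measured 10.07, 10.37 and 10.61 in the controls and 11.90, 11.92 and 11.39 in the mutants (1.38 ± 0.37, limma adjusted p = 0.679). Pur-alpha, which binds single-stranded nucleic acids, measured 11.41, 11.56 and 11.63 in the controls and 12.22, 12.16 and 11.92 in the mutants (0.57 ± 0.22, limma adjusted p = 0.849). Both had separate groups and neither passed.

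Mitochondrial genes, the compartment on which parkin acts, gave small medians in both directions. The PINK1-parkin pathway and mitochondrial dynamics list had a median of 0.56 over the 13 of 22 members that passed (8 higher, 5 lower), but −0.14 over all 22. With the title letter as a fixed block the median of the 13 was −0.28. Of the 13, 3 had mutants wholly above the controls and none wholly below, where all tested probe sets gave 3.95% and 8.03%. None of the 3 passed. The mitochondrial transport adaptor milt measured 9.26, 10.35 and 11.05 in the controls and 11.05, 11.49 and 11.93 in the mutants. Tom7, a subunit of the outer membrane import channel, measured 8.58, 10.32 and 10.22 against 10.63, 10.95 and 10.85. The prohibitin gene Phb1 measured 6.12, 6.15 and 6.46 against 6.63, 6.56 and 7.20. The gaps between the groups were small for all 3 genes, and none passed (differences 1.27 ± 0.58, 1.10 ± 0.65 and 0.56 ± 0.37).

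The subunits of the respiratory chain were measured in both directions in similar numbers. Complex I had a median of 0.15 over 24 of 29 subunits (13 higher, 11 lower; −0.09 without mutant replicate 2), and complexes II to V had 0.07 over 28 of 31 (15 higher, 13 lower; −0.01 after quantile normalization). The subunit with the smallest p in complex I was ND-13A, at 7.40, 6.20 and 5.78 in the controls and 7.77, 9.63 and 8.67 in the mutants (2.23 ± 0.79). In complexes II to V it was the cytochrome c oxidase subunit cype, at 6.88, 6.44 and 6.35 in the controls and 7.47, 9.46 and 8.28 in the mutants (1.85 ± 0.71). The mitochondrial ribosomal proteins had a median of −0.08 over 37 of 72 members (16 higher, 21 lower), which was 0.03 with arrays centred on their medians. Beside mRpL20, the member mRpL23 measured 7.76, 6.53 and 11.89 in the controls and 5.95, 4.72 and 4.22 in the mutants (−3.76 ± 1.38), and mRpS25 measured 6.64, 7.15 and 8.17 against 9.08, 10.75 and 8.84 (2.24 ± 0.89). Members of the same ribosome were thus measured in opposite directions, and none passed. Of the 37, 6 had mutants wholly below the controls and 2 wholly above, where all tested probe sets gave 8.03% and 3.95%. At an unadjusted p under 0.05, 4 were lower and 1 higher, where all tested probe sets gave 1.51% and 3.02%.

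Genes of the routes that clear proteins and organelles also varied about the overall median. Autophagy genes had a median of 0.17 over 19 of 27 members (11 higher, 8 lower), but −0.17 without mutant replicate 2 and −0.23 without mutant replicate 3. Atg8a, the ubiquitin-like protein that coats autophagosomes, measured 10.56, 9.07 and 6.82 in the controls and 11.82, 11.22 and 11.44 in the mutants. The mutants were close together and above all controls (2.67 ± 0.99, limma adjusted p = 0.849). The autophagy receptor ref(2)P, the fly p62, measured 9.34, 11.22 and 9.54 in the controls and 8.01, 9.11 and 8.53 in the mutants (−1.48 ± 0.82). Lysosomal and V-ATPase genes had a median of 0.20 over 23 of 30 members, with 17 measured higher and 6 lower, and −0.01 with 11 higher without mutant replicate 2. Among them the proton pump subunit Vha36-1 measured 8.17, 6.96 and 7.83 in the controls and 9.07, 9.33 and 9.43 in the mutants, and VhaSFD 6.57, 7.56 and 7.85 against 9.67, 10.62 and 7.86. The groups of both subunits were separate, though mutant replicate 3 of VhaSFD nearly touched the controls, and neither passed.

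The endosome tethering and sorting list, to which Vps11 belongs, had a median of −0.17 over 30 of 40 members (14 higher, 16 lower), which was 0.06 without control replicate 1 and 0.08 without mutant replicate 3. The other members with the smallest p were measured in both directions. Snx3, a sorting nexin that recycles cargo from endosomes, measured 6.62, 5.27 and 6.67 in the controls and 9.21, 8.52 and 7.63 in the mutants (2.26 ± 0.71). The lysosomal fusion protein Vamp7 measured 5.15, 5.00 and 5.91 against 6.27, 8.03 and 9.61 (2.62 ± 0.86). Its fusion partner Snap29 measured 6.98, 7.27 and 6.15 in the controls and 5.98, 5.36 and 5.06 in the mutants (−1.33 ± 0.44). All 3 had separate groups, and none passed. The proteasome had a median of −0.04 over 16 of 26 subunits (0.06 after quantile normalization), of which the lid subunit Rpn6 had the smallest p (8.88, 6.84 and 11.64 in the controls against 5.20, 6.03 and 6.56 in the mutants).

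The direction of neuronal and synaptic lists rested in part on control replicate 2, the array that stood apart. The general neuronal list had a median of 0.27, with 11 of 13 members higher (0.12 with 8 higher without that array, −0.07 with the title letter as a fixed block), and its mean level ran from 9.96 to 10.90 on the control arrays and from 10.89 to 11.05 on the mutant arrays. The lowest value was that of control replicate 2. The RNA-binding protein elav measured 11.55, 9.07 and 10.89 in the controls and 11.90, 11.35 and 11.57 in the mutants, so the groups overlapped. Appl, the fly amyloid precursor protein, went the other way, with 11.92, 11.17 and 11.57 in the controls and 11.03, 10.51 and 10.97 in the mutants. Synaptic vesicle release genes had a median of 0.31 over 22 members (15 higher, 7 lower), which was −0.14 with 10 higher without control replicate 2 and −0.25 with the letter block. Within them shi, the dynamin of synaptic vesicle recycling, measured 10.76, 12.90 and 11.63 in the controls and 6.04, 8.74 and 9.37 in the mutants (−3.71 ± 1.08), whereas the endocytic adaptor AP-2alpha measured 6.86, 5.31 and 6.72 against 8.17, 9.34 and 8.20 (2.27 ± 0.72). The groups of both genes were separate, and neither passed (limma adjusted p = 0.796 and 0.849).

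Ion channel and receptor genes were measured in both directions. The calcium channel gene Ca-alpha1D measured 7.19, 7.17 and 9.01 in the controls and 11.34, 11.56 and 9.34 in the mutants (2.95 ± 0.97). The potassium channel gene Sh measured 8.33, 10.55 and 10.19 in the controls and 11.51, 11.81 and 11.40 in the mutants (1.88 ± 0.67). The voltage-gated list as a whole was balanced, with 12 members higher, 12 lower and a median of 0.01 (−0.18 after quantile normalization). Its differences ran from −3.43 to 2.95. Mutants lay wholly above the controls for 2 of its members and wholly below for 2, where all tested probe sets gave 3.95% and 8.03%. Ekar, a kainate-type glutamate receptor, measured 4.02, 4.55 and 5.63 in the controls and 7.78, 9.68 and 7.97 in the mutants (3.74 ± 0.69, limma adjusted p = 0.360). The ionotropic glutamate receptors had a median of 0.61 over the 10 of 16 that passed, and 0.19 over all 16. The peptide-amidating enzyme Phm measured 5.89, 5.74 and 5.72 in the controls and 7.50, 10.02 and 10.03 in the mutants (3.40 ± 0.85, limma adjusted p = 0.594).

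Markers of Kenyon cells, the cholinergic neurons of the mushroom body, had a higher mean level on every mutant array than on any control array. They were not alone in this. The ionotropic glutamate receptors gave 6.69 to 6.82 on the control arrays and 6.88 to 7.54 on the mutant arrays. The Notch, methuselah receptor and sex-biased transcript lists had a lower mean level on every mutant array. Of 10 Kenyon cell genes 9 passed, 6 higher and 3 lower with a median of 0.66. The median was −0.13 without mutant replicate 2, with 4 of 9 higher, and −0.13 with the letter block. Over all 10 genes their mean level was 7.98 to 8.53 on the control arrays and 8.67 to 9.47 on the mutant arrays. The RNA-binding protein mub measured 10.58, 8.91 and 9.27 in the controls and 12.43, 11.31 and 12.31 in the mutants. The dopamine receptor Dop1R1 measured 8.47, 8.64 and 6.39 against 10.55, 9.83 and 10.89. Of the 9, these 2 genes had mutants wholly above the controls and none wholly below, where all tested probe sets gave 3.95% and 8.03%. Neither gene passed the threshold (2.43 ± 0.61 and 2.59 ± 0.90). The part of the neuron mixture in the differences above was not tested. Glial markers overlapped, with a mean level of 4.88 to 6.18 on the control arrays and 5.54 to 6.14 on the mutant arrays over 18 genes. The glial median was 1.05 over the 7 that passed and −0.02 over all 18. The glutamine synthetase Gs2 was the glial gene with separate groups, at 5.14, 6.08 and 5.95 in the controls and 8.32, 7.10 and 8.42 in the mutants.

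Initiation factors of translation had a median of 0.60 over 27 of 37 members (19 higher, 8 lower), and cytosolic ribosomal proteins had −0.30 over 35 of 37 (14 higher, 21 lower). The difference between these lists was not tested. The scaffold eIF4G1, which joins the cap to the ribosome, measured 4.54, 6.51 and 5.08 in the controls and 9.40, 9.76 and 10.16 in the mutants (4.40 ± 0.74, limma adjusted p = 0.299). The cap-binding isoform eIF4E4 measured 6.4, 6.24 and 5.98 against 7.53, 7.23 and 7.30 (1.15 ± 0.39). The mutants lay wholly below the controls for eIF3c (11.50, 5.93 and 5.75 against 4.71, 5.25 and 4.46) and for eIF6 (7.02, 6.17 and 5.72 against 5.47, 5.57 and 5.30). These 4 factors were the only ones of the 27 with separate groups, 2 in each direction. Over all tested probe sets, mutants lay wholly above the controls for 3.95% and wholly below for 8.03%. None of the 4 factors passed. No cytosolic ribosomal gene had an unadjusted p under 0.05, and RpS21 was the 1 member with separate groups (6.96, 8.47 and 6.91 in the controls, 6.57, 5.86 and 5.93 in the mutants). With the title letter as a fixed block the medians were −0.34 and −0.55.

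Of 24 Notch pathway genes with a probe set only 6 passed the filter, 2 higher and 4 lower. E(spl)m5-HLH gave the lowest difference in that list, and the co-repressor gro, which works with E(spl) proteins, gave the highest. The gene gro measured 9.34, 6.21 and 6.07 in the controls and 10.25, 11.17 and 9.32 in the mutants, and mutant replicate 3 lay just below the highest control (3.04 ± 1.15, limma adjusted p = 0.849). In the methuselah receptor family, mthl7 measured 8.08, 11.93 and 9.89 in the controls and 5.65, 3.97 and 5.65 in the mutants, without overlap (−4.88 ± 1.1, limma adjusted p = 0.594). The 3 other members that passed had overlapping groups.

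Stress and metabolic lists held no member with an unadjusted p under 0.05. Apoptosis and JNK genes had a median of −0.53 over 16 of 22 members (6 higher, 10 lower), but −0.01 over all 22 and 0.24, with 10 of 16 higher, without mutant replicate 1. Genes of oxidative stress and glutathione had −0.23 over 17 of 42, glycolysis −0.23 over 10 of 12, and the TCA cycle with pyruvate dehydrogenase 0.11 over 12 of 16. Mitochondrial import, chaperones and proteases gave 0.08 over 17 of 21. Circadian clock genes had a median of 0.94 over the 9 of 16 that passed, 0.20 over all 16, and −0.22 over the 9 without control replicate 2. Innate immune genes had 0.15 over 12 of 29, and −0.15 over all 29. Single arrays also turned the sign of the glycolysis, TCA cycle, mitochondrial import and innate immune medians, which ran from −0.75 to 0.34, −0.01 to 0.30, −0.16 to 0.12 and −0.31 to 0.53 when 1 array was left out. None of these lists had a mutant group and a control group that separated for more than 2 of its members.

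**Figure D4:**
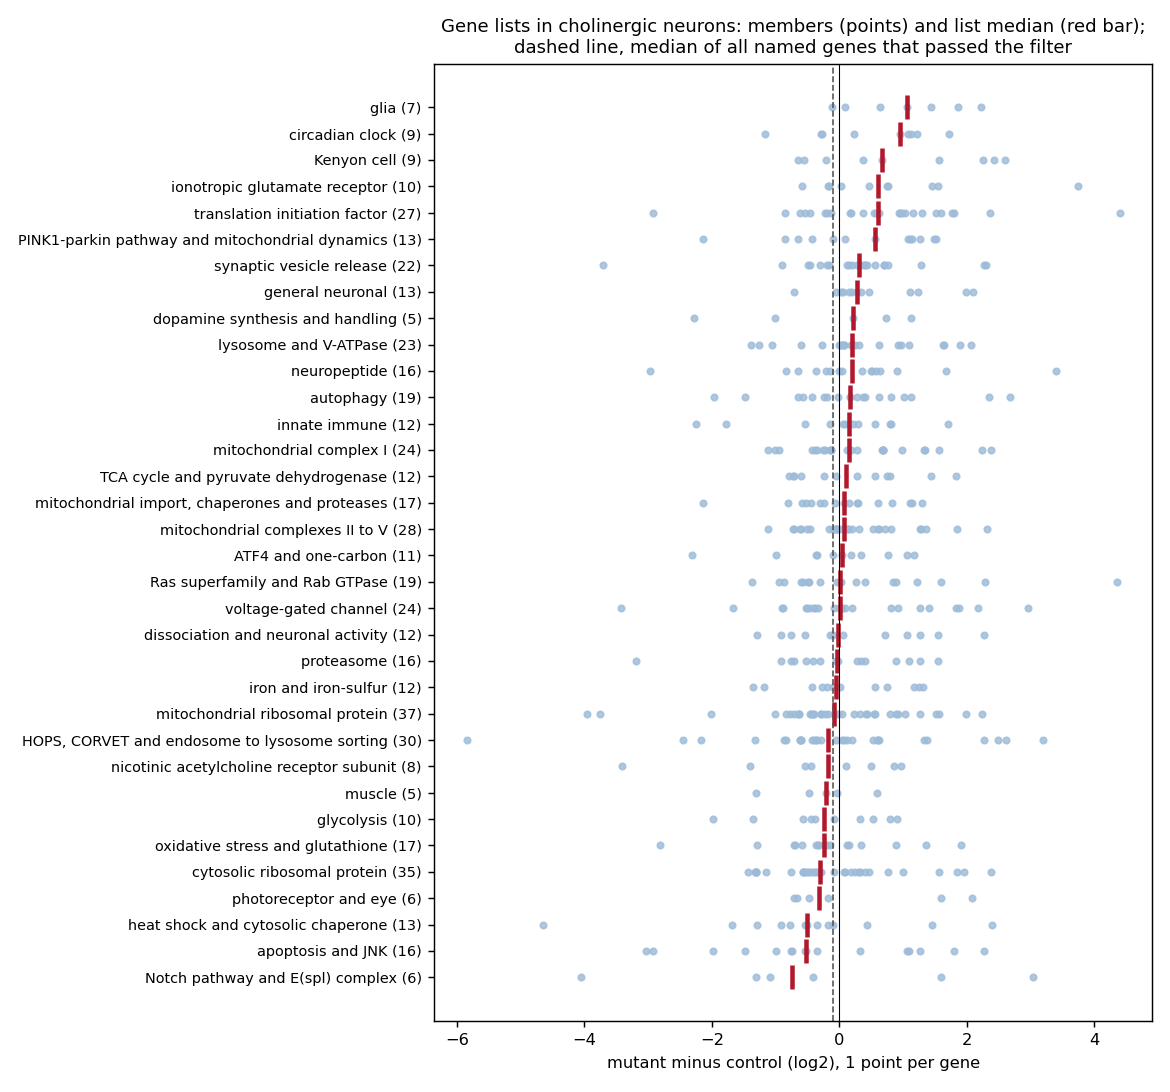
Mutant minus control difference (log2) in cholinergic neurons for the gene lists with at least 5 members that passed the filter, 1 point per gene, with the number of such members in brackets. Red bars are list medians and the dashed line the median of −0.09 over all named genes that passed. Every list spreads across 0, and list medians run from −0.75 for the Notch list to 1.05 for the glial list, which was −0.02 without the filter.

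Whether the effect of the mutation differed from that in dopaminergic neurons was tested as an interaction on all 12 arrays. None of 12460 probe sets passed with limma (0%), with 0.326 as the lowest adjusted p, and 645 (5.18%) had an unadjusted p under 0.05. The 4 genes called in cholinergic neurons had dopaminergic means of 4.55 in controls and 4.72 in mutants for Ras64B, 4.02 and 4.55 for CG32246, 6.30 and 4.28 for RhoGAP92B, and 7.39 and 4.51 for coro. The mean of coro hides a wide spread, since the dopaminergic controls measured 11.02, 2.72 and 8.45 and so overlapped the cholinergic controls. The measured effect in cholinergic neurons exceeded that in dopaminergic ones by 4.21 ± 0.68 for CG32246 (limma adjusted p = 0.326) and by 4.18 ± 1.06 for Ras64B (0.731), 6.74 ± 1.53 for RhoGAP92B (0.572) and 8.51 ± 2.42 for coro (0.773). The 4 genes were selected for their cholinergic difference, which is a term of this test. Large positive values were thus favoured by the selection and are no independent support. Both dopaminergic groups enter the error of these 4 values. The SD was 4.25 in dopaminergic controls and 2.18 in dopaminergic mutants for coro, 2.71 and 1.19 for RhoGAP92B, 0.86 and 1.58 for Ras64B, and 0.16 and 0.29 for CG32246. The test gave 3 probe sets without dopaminergic mutant replicate 2 and 1 without cholinergic mutant replicate 1.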

How the data were processed

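Each of the 6 cholinergic arrays held 1 pool, 3 per genotype, grouped by sample title. Values were used as deposited, in log2 intensity for each probe set, without further scaling. How the authors normalized them is not given in the sources used here. The table held 18952 probe sets. After 183 control probe sets were left out, 13647 of 18769 had 1 gene symbol in the array annotation, 402 several and 4720 none, and only the first were named (13544 symbols matched the RefSeq Release 6 table, used for names alone). The 9748 probe sets that reached the array median on 3 or more of the 6 arrays were tested, so a probe set bright in a single group could pass. No probe set is named for parkin, which was not analysed here.

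Mutant minus control was fitted on the 6 arrays by lmFit and trended eBayes (limma 3.58.1, R 4.3.3, 2-sided), with Benjamini-Hochberg adjustment over all tested probe sets and a threshold of 0.05. SE is limma's. The difference of the mutant effects between neuron types was fitted on all 12 arrays. The fit was tested on simulated data, in which changes of a few log2 units were mostly missed, so a gene that did not pass is not shown to be unchanged. Tables and plots were made with Python 3.11.15, pandas 2.3.3 and matplotlib 3.10.9. Whether the 3 pools of a genotype came from separate fly cohorts is not stated in the labels. The p-values therefore reflect the spread between arrays alone, which may be technical. The number of arrays limits the precision.

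Genes were named by rule: those past the threshold, the genes with the smallest p up to 12 per direction, 5 genes known from earlier results of these data (CG32246, lncRNA:CR33942, Sps2, Vps11 and E(spl)m5-HLH), up to 4 members of each gene list with the smallest p, and 10 transmitter, neuronal and glial markers. In lists a gene was represented by its brightest probe set. Some list genes, among them Phm, mub and milt, have other probe sets that are not described here. The comparison, the 42 lists and the named members were chosen with earlier results of these data known, so they are no independent support for any direction. Alternatives were other normalizations, filters, moderation, array weights, blocks by the letter of the title code (its meaning is not given), all 12 arrays, a threshold of 0.1 and leaving out each array.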

Additional observations from a re-analysis of the deposited data

How the results depend on the processing

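The count of 4 called probe sets, all higher in mutants, was the same 4 after quantile normalization, centring, a filter at the 65th percentile, robust moderation, the title letter as a random block and averaging the probe sets of a gene. It was 5 with array weights or a threshold of 0.1 and 3 with a filter on the mean, chosen after seeing the data. No probe set was called with limma without the filter (0; 637 at an unadjusted p under 0.05), without a trend (0; 454) or with the title letter as a fixed block (0; 485), which rests on 3 arrays. The fit on all 12 arrays called 7 (5 higher, 2 lower), of which CG32246 alone was shared with the 4. Leaving out 1 cholinergic array gave 0 to 2 calls. The difference of the mutant effects, called for 0 probe sets, gave 0 to 3 when 1 of the 12 arrays was left out and 0 in the other settings run for it. Among 75 named genes, direction reversed for ChT (−0.55 with the letter as a fixed block, −0.36 to 2.98 when 1 array was left out) and VAChT (−0.088 with that block). The cause of these changes was not tested. List medians were unsteady. Without the filter the median turned negative for the PINK1-parkin (−0.14), glial (−0.02), complex I (−0.02), innate immune (−0.15), neuropeptide (−0.18), ATF4 (−0.03), methuselah (−0.12), voltage-gated (−0.01) and Ras superfamily and Rab (−0.01) lists. The letter block turned the general neuronal, synaptic, Kenyon cell, lysosome, PINK1-parkin, glial and initiation factor medians. It also turned those of the acetylcholine, dopamine, serotonin, hemocyte, muscle, neuropeptide, respiratory complex, mitochondrial ribosomal, TCA cycle, iron, voltage-gated and Ras lists. Single arrays turned many of the medians near 0. The heat shock, cytosolic ribosomal, Notch, ionotropic glutamate receptor, oxidative stress and photoreceptor medians kept their sign in the 14 settings changing differences or members. The fat body median did so in the 13 of these settings that kept any of its members. No paired analysis was possible because the labels carry no replicate numbers shared between the groups. Signal limits the comparison between log2 values of 7 and 10, where the median SD between replicates exceeds 1.2.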
